A study of Mus musculus with 8 samples.

Results

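The genes described here are 10 cytokines that thymic epithelial cells can make, namely Il6, Il11, Lif, Il7, Il15, Tslp, Kitl, Csf1, Csf2 and Csf3. They were chosen by name, and every probe for them on the array was used, 16 probes of 56605 that were not controls. Of the 10 genes, 8 were tested, among 19023 tested genes in all, because a probe of theirs stood well above background on each array of 1 group or more. Il7 and Csf2 were not well above background on any of the 8 arrays.

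The cells were of the mouse line TEC100.4, labelled as cortical thymic epithelial cells, carrying a mutant of the transcription factor TFII-I that doxycycline switches on. TFII-I is the product of Gtf2i, and the mutant was made in the β or the δ isoform, giving a β line and a δ line. The study concerns what the mutant protein changes in thymic epithelial cells. RNA was measured on single-colour Agilent expression arrays, 1 array a sample.

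The 4 groups held 2 arrays each. Treated δ cells were the TFII-I-δmt line cultured for 24 h with doxycycline, and untreated δ cells were the same line cultured for 24 h without it. Treated and untreated β cells were the TFII-I-βmt line handled in the same ways. All 4 groups thus carry an inducible construct. Untreated samples are titled as the mutant lines without the drug but carry a wild type genotype label, and the groups follow the titles. Cells without a construct that received doxycycline were not analysed here, so an effect of the drug and an effect of the mutant protein cannot be told apart. Each isoform is represented by 1 line, so isoform and line cannot be told apart either. Whether the 2 arrays of 1 group were grown separately is not stated in the labels, so the p-values here reflect array-to-array spread that may be technical.

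Cytokines of the thymic epithelium act on neighbouring cells through receptors on their surface. Interleukin 6, interleukin 11 and leukaemia inhibitory factor form 1 family whose receptors share the signalling chain gp130, which works through JAK kinases and STAT3. Interleukin 7, interleukin 15, thymic stromal lymphopoietin and the KIT ligand (stem cell factor) nourish developing lymphocytes and their precursors, and the colony stimulating factors act on myeloid cells.

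Levels are given as log2 of the processed spot intensity relative to the array's 75th percentile, so a value of 0 is the brightness of that percentile and a difference of 1 is 2-fold. Levels of different probes are not compared with each other. A gene was called where limma's adjusted p, taken over all tested genes, was under 0.05. With 2 arrays a group, 2 groups often do not overlap. This held with doxycycline for 58.1% of all tested genes in the δ line and 46.9% in the β line. Between the lines it held for 68.4% with doxycycline and 53% without. Among the 8 tested cytokines it held for 5 in each of these comparisons except the untreated lines, where it held for 8. The share for all 4 against all 4 arrays was not counted. Between 39578 and 45156 probes were well above background on an array, the 4 treated arrays above the 4 untreated ones. Treated and untreated arrays lay in different rows of the slide and the lines in different columns, so slide position cannot be told apart from either comparison. On the untreated δ replicate 1, 97 of 1008 tiles of the array, here called the patch, deviated from the other arrays by over 0.3. Of these, 59 were darker, down to -4.25, and 38 brighter, up to 0.688. At most 7 tiles deviated on any other array. The patch covers the brighter Il15 probe and, at its edge, the Lif probe. Of 12 markers of cortical thymic epithelium, 7 were well above background on all arrays, among them Foxn1 and Prss16, and Psmb11, Cd83 and Enpep were not on any array. Of 8 general epithelial markers, 6 were well above background on all arrays, with summed linear levels (relative to the same percentile) of 16.3 to 17 in treated δ, 16.4 to 18.2 in untreated δ, 54.9 to 60.5 in treated β and 57.9 to 65.8 in untreated β cells. Of 10 fibroblast markers, 9 were well above background on all arrays. Their summed levels were 828 to 836 in treated δ, 757 to 814 in untreated δ, 806 to 877 in treated β and 734 to 778 in untreated β cells. Of 13 thymocyte markers, 8 were well above background on all arrays, among them Cd3e, Cd4, Cd8a and Lck, while Rag1, Cd3g and Cd2 were not on any array. Of 10 markers of macrophages and dendritic cells, 5 were well above background on all arrays (Cd14, Cd68, Cd74, Csf1r and Itgam), while the leukocyte gene Ptprc, Adgre1 and Itgax were not on any array.

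Il6 had lower values with doxycycline in both lines. It was the one cytokine of the 10 called with doxycycline, in the β line and for the mean of both lines. Interleukin 6 is an inflammatory cytokine that acts on lymphocytes and epithelium. Its brighter probe, A_55_P1997756, read -2.14 and -2.28 in treated δ cells, against -1.44 and -1.50 in untreated δ cells. In the β line the same probe read -2.40 and -2.28 with doxycycline, against -1.22 and -1.26 without it. All 4 treated arrays were below all 4 untreated arrays. The second probe, A_55_P2733612, read -3.98 and -4.09 in treated δ cells, against -2.87 and -2.69 in untreated δ cells. It read -3.68 and -3.52 in treated β cells, against -2.39 and -2.41 in untreated β cells. On this probe, too, every treated array was below every untreated array. Both probes lie outside the patch. In bulk RNA, fewer cells that make a transcript and less transcript per cell cannot be told apart.

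**Figure D1:**
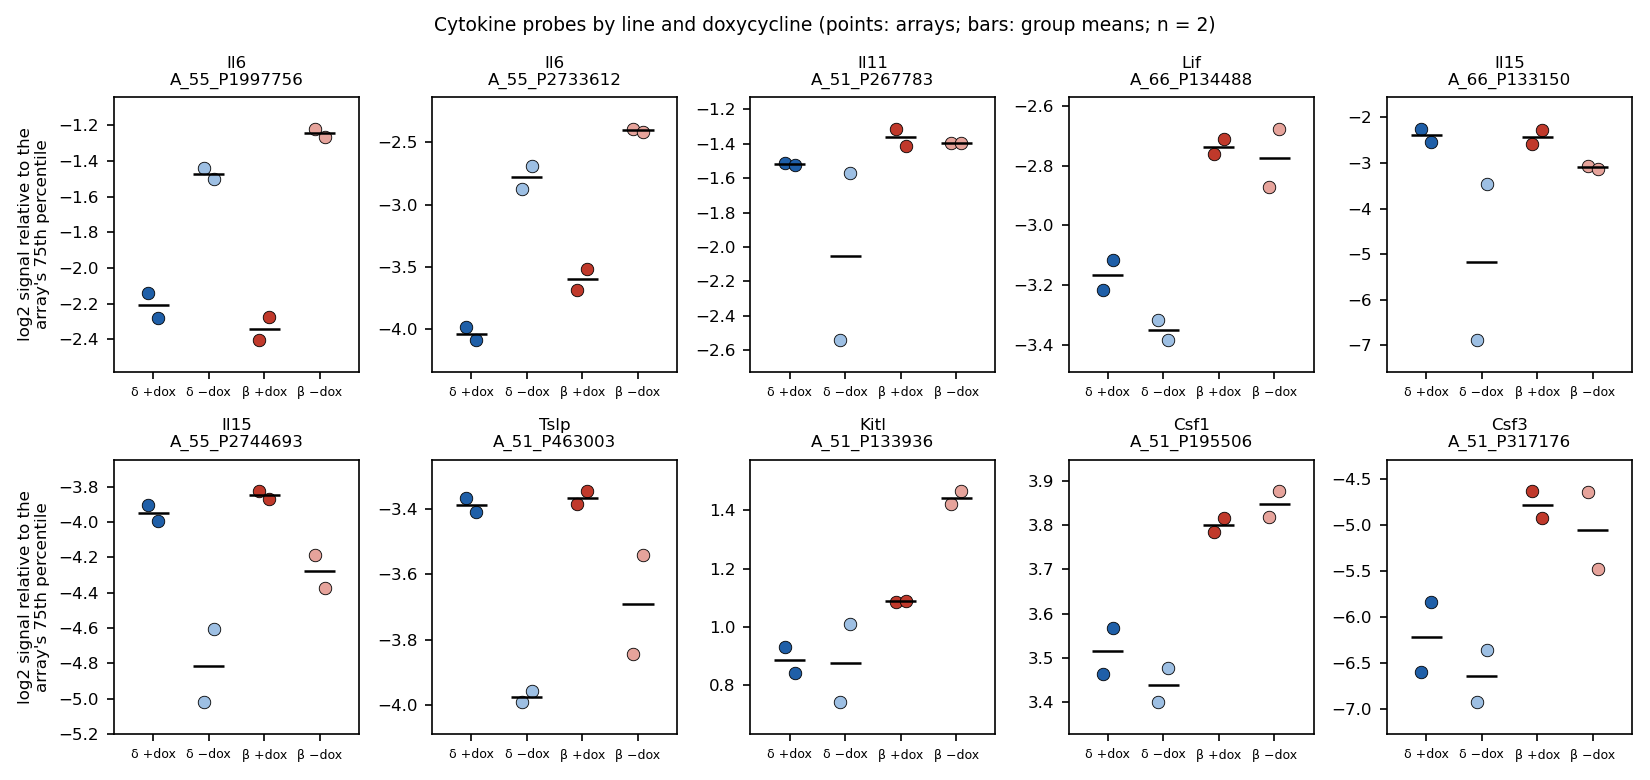
Level of 10 probes of the 8 measured cytokines on each array, as log2 signal relative to the array's 75th percentile, with both probes of Il6 and of Il15 and the brightest probe of the others. Points are arrays (2 a group), bars are group means, and the vertical scales differ between panels. The treated arrays lie below the untreated ones on both Il6 probes, from -2.40 to -2.14 with doxycycline on A_55_P1997756, and 1 untreated δ array stands apart for Il11 (-2.54) and Il15 (-6.89).

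In the δ line the doxycycline difference on the brighter probe was -0.74 (SE 0.10, 95% interval -0.98 to -0.50, limma adjusted p = 0.0823), which did not pass. No cytokine passed in the δ line, where 14 genes, 0.0736% of all tested, were called by limma and 15% had an unadjusted p under 0.05. In the β line Il6 fell by 1.10 on the log2 scale, which is 2.14-fold (SE 0.10, 95% interval -1.34 to -0.86, adjusted p = 0.039). It was 1 of 47 genes called in that line, 0.247% of all, and 1 of the 8 measured cytokines. For the mean of both lines Il6 fell by 0.92 (SE 0.07, 1.89-fold, adjusted p = 0.00939), as 1 of 595 genes called, which is 3.13% of all. On the second probe, with p-values adjusted over the 44321 kept probes, the change was -1.25 in the δ line (SE 0.12, adjusted p = 0.0817), -1.20 in the β line (SE 0.12, adjusted p = 0.0651) and -1.22 for their mean (SE 0.08, adjusted p = 0.0134). Among the 19023 genes, Il6 had the 238th lowest change in the δ line, the 56th lowest in the β line and the 49th lowest for the mean.

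A difference between the lines in this response did not pass the test. The difference of the doxycycline effects of Il6, δ minus β, was 0.36 on the brighter probe (95% interval 0.02 to 0.70, adjusted p = 0.645) and -0.06 on the second (95% interval -0.46 to 0.35). No cytokine was called for that difference, for which 1 gene, 0.00526% of all, passed by limma and 7.6% had an unadjusted p under 0.05.

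The call in the β line was close to the threshold. Leaving out either treated β array gave adjusted p-values of 0.159 and 0.221, either treated δ array 0.159, and the untreated β arrays 0.101 and 0.0672, with values of -1.16 to -1.03, and leaving out either untreated δ array kept the call. The δ value passed without untreated δ replicate 2 (-0.77, adjusted p = 0.0182) and as the mean of the 2 probes (-0.996, adjusted p = 0.046). The call for the mean of both lines was lost without treated β replicate 2 (adjusted p = 0.0556) or without treated δ replicate 1 (0.0739) or 2 (0.0698). With the slide column as a replicate block both calls were lost (adjusted p = 0.214 in the β line and 0.12 for the mean). Of the other alternatives that keep all arrays, normexp (0.0509), median centring (0.0638), no filter on dim probes (0.0535) and the groups compared alone (0.0647) also ended the β call. The 1701 genes of a signal within 0.5 of that of Il6 had a median doxycycline change of -0.07 in the δ line and 0.05 in the β line.

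**Figure D2:**
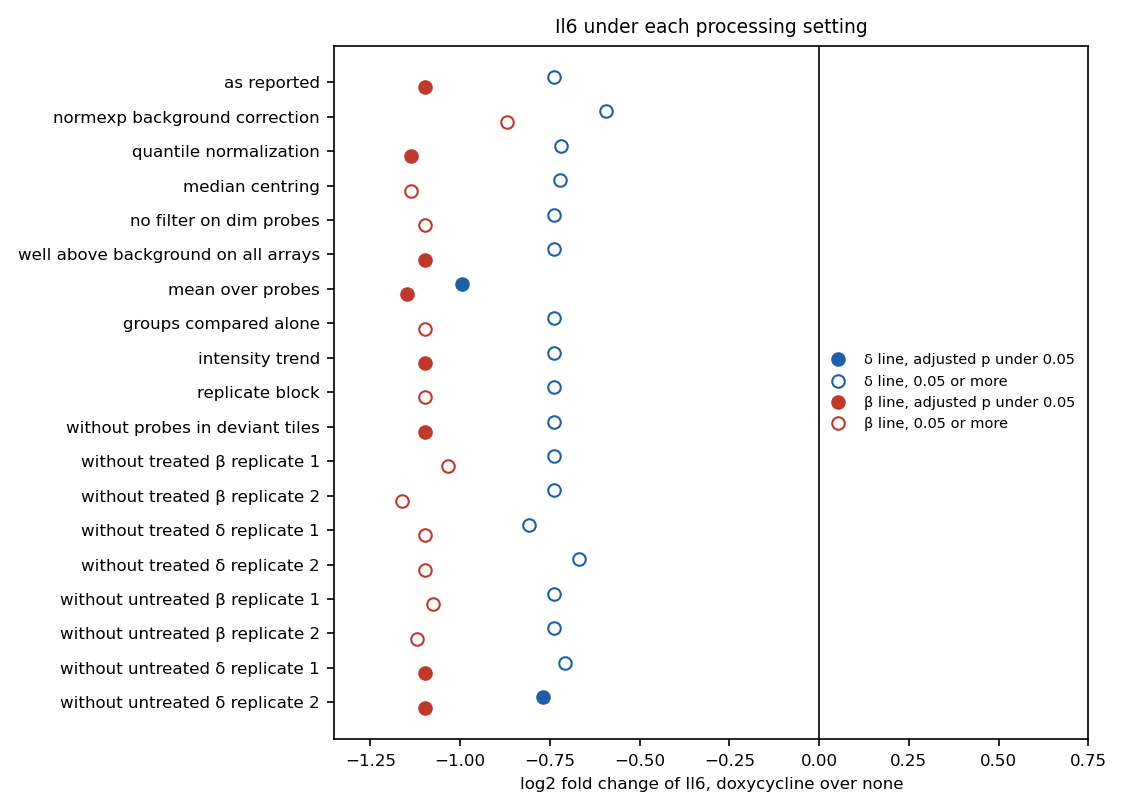
Log2 fold change of Il6, doxycycline over none, in the δ and β lines under each processing setting and with each array left out. Filled points have an adjusted p under 0.05. The δ values run from -0.996 to -0.594 and the β values from -1.16 to -0.87, all below 0, and their adjusted p lies on both sides of 0.05.

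The RefSeq promoter windows of Il6, Lif and Csf1 (assembly GRCm38.p6, 250 bases before to 50 after the annotated start) are shown because Il6 was called with doxycycline while Lif, of the same cytokine family, and Csf1 were not. Windows of 6 of the 10 genes were searched, and any window on a chromosome left out beforehand is not among them. Capitals mark matches to 4 motifs searched on both strands, where N is any base. For the NF-κB factors the letters were GGANTTTCC, for the C/EBP factors they were TTGCNNAA, for the AP-1 factors they were TGANTCA, and for the TATA box they were TATAAA.
Il6, chr5:30012864-30013163, plus strand: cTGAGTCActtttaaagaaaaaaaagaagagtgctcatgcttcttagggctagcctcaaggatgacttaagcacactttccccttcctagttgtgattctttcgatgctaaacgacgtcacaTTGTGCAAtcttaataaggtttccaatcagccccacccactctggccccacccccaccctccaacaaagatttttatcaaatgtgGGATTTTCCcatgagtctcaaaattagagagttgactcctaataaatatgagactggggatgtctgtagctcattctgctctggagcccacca
Lif, chr11:4257318-4257617, plus strand: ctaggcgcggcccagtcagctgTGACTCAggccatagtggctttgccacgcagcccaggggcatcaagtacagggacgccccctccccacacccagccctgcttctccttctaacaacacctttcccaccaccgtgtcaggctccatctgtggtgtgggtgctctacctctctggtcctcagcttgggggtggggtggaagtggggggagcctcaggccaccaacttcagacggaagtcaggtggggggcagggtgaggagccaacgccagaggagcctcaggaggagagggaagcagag
Csf1, chr3:107760420-107760719, minus strand: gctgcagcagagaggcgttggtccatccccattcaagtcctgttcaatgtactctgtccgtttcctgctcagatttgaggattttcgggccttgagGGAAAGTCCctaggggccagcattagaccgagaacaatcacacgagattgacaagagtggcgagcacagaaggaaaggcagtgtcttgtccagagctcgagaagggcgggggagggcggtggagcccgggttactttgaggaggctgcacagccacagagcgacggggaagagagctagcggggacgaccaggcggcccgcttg
The Il6 window holds an NF-κB match whose first base is at -43 from the start, a C/EBP match at -128 on the opposite strand and an AP-1 match at -249. The Lif window holds an AP-1 match at -228, and the Csf1 window an NF-κB match at -154 on the opposite strand. Of 32851 promoter windows of this length, 1.25% hold the NF-κB letters, 10.8% the C/EBP letters, 7.81% the AP-1 letters and 13.6% the TATA letters. None of the 3 windows holds TATAAA. The E-box CANNTG, a motif that TFII-I is known to bind among others, is present in 72.3% of the windows, once in Il6 at -51, at -234, -106 and -12 in Lif, and not in Csf1. These matches describe the letters of the windows, and no binding was measured.

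The other family members Il11 and Lif were not called with doxycycline. Il11, which acts on stromal and haematopoietic cells, read -1.51 and -1.52 in treated δ cells, against -2.54 and -1.57 in untreated δ cells. In the β line it read -1.32 and -1.41 with doxycycline, against -1.40 on both arrays without. In the δ line 1 untreated array, replicate 1, lies far below the other, and in the β line the groups overlap. The changes were 0.54 in the δ line (SE 0.29, adjusted p = 0.406) and 0.03 in the β line (SE 0.29, adjusted p = 0.975). Without the untreated δ replicate 2 the δ change of Il11 was 1.02 (adjusted p = 0.0034), and without replicate 1, whose spot deviated by -1.07 in a tile that did not, it was 0.05.

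Lif, which maintains stem cells and acts on many tissues, was lower in the δ line than in the β line both with and without doxycycline. Its probe read -3.21 and -3.12 in treated δ cells, against -2.76 and -2.71 in treated β cells. Without doxycycline it read -3.32 and -3.38 in δ cells, against -2.87 and -2.68 in β cells. All 4 δ arrays were below all 4 β arrays, and treated and untreated arrays of the β line overlap. With doxycycline Lif was lower in δ than in β cells by a log2 difference of -0.43 (SE 0.10, 1.35-fold, adjusted p = 0.0428), and without it by -0.58 (SE 0.10, 1.49-fold, adjusted p = 0.0182). The doxycycline changes were 0.18 in the δ line (95% interval -0.07 to 0.44, adjusted p = 0.417) and 0.04 in the β line (95% interval -0.21 to 0.29, adjusted p = 0.904). The Lif probe lies in a tile that deviated by -0.32 on the untreated δ replicate 1. Without that array the untreated difference was -0.61 (adjusted p = 0.0486) and the treated one, -0.43, had an adjusted p of 0.0504, as it did without untreated δ replicate 2. The untreated call was lost without untreated β replicate 2 (adjusted p = 0.052) or either treated δ array (0.0544), and the treated call without any 1 of the 4 treated arrays (0.127 to 0.263). The treated call was lost in 11 of 17 alternatives in all, among them quantile normalization (-0.35, adjusted p = 0.113) and median centring (-0.35, adjusted p = 0.184), and the untreated one in 5 of 17.

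Tslp and Il15 had higher values with doxycycline in both lines that did not pass the threshold. Tslp encodes an epithelial cytokine that signals through a receptor made of CRLF2 and the interleukin 7 receptor. Its probe read -3.37 and -3.41 in treated δ cells, against -3.99 and -3.96 in untreated δ cells. In the β line it read -3.39 and -3.35 with doxycycline, against -3.84 and -3.54 without. Every treated array was above every untreated array. The change was 0.58 in the δ line (SE 0.12, adjusted p = 0.171), 0.33 in the β line (SE 0.12, adjusted p = 0.229) and 0.45 for their mean (SE 0.08, 95% interval 0.25 to 0.66, adjusted p = 0.0501). The mean passed in the fits that tested other sets of genes, with adjusted p = 0.0309 among genes well above background on all arrays, 0.031 with no filter on dim probes and 0.0349 without the probes in deviating tiles. It also passed without untreated β replicate 2 (0.53, adjusted p = 0.0435) or untreated δ replicate 2 (0.46, adjusted p = 0.0372). Over its alternatives the adjusted p ran from 0.0309 to 0.22. The 1880 genes of a signal within 0.5 of that of Tslp had a median change of -0.04 in the δ line and 0.10 in the β line.

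Il15 is a cytokine that maintains natural killer cells and memory T cells. Its brighter probe, A_66_P133150, lies in the patch and read -6.89 on the untreated δ replicate 1, against -3.46 on replicate 2, so that its δ change of 2.78 had an SE of 0.99 (adjusted p = 0.304) and its β change was 0.66 (adjusted p = 0.8). The second probe, A_55_P2744693, lies outside the patch. It read -3.90 and -3.99 in treated δ cells, against -5.02 and -4.61 in untreated δ cells. In the β line it read -3.83 and -3.87 with doxycycline, against -4.19 and -4.37 without. On this probe every treated array was above every untreated array. It was not well above background on 1 of the 2 untreated δ arrays. The changes on this probe were 0.86 in the δ line (SE 0.16, adjusted p = 0.217), 0.43 in the β line (SE 0.16, adjusted p = 0.279) and 0.65 for their mean (SE 0.11, adjusted p = 0.068 over all kept probes). With the probes in deviating tiles left out, this probe stood for the gene and the mean of 0.65 passed (adjusted p = 0.0259). On the brighter probe the mean also passed without untreated δ replicate 1 (0.86, adjusted p = 0.0303) and without replicate 2, which leaves the patched array alone (2.58, adjusted p = 8.96e-05). The brighter probe's δ change, too, was called without replicate 2 (4.50, adjusted p = 3.89e-05).

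**Figure D3:**
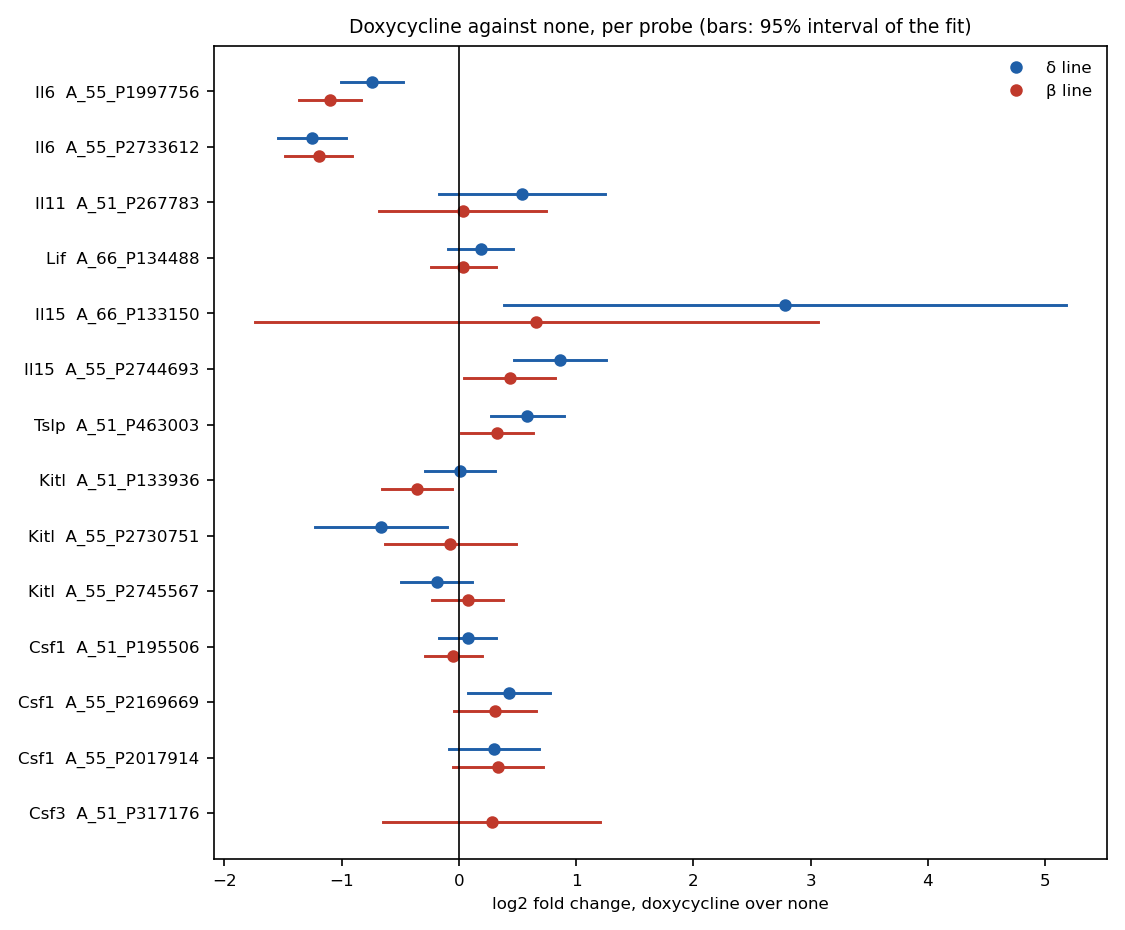
Log2 fold change with doxycycline of each kept cytokine probe in the δ and β lines, with 95% intervals of the fit across all probes. On the 2 Il6 probes the values run from -1.25 to -0.74, with intervals below 0, the wide intervals of A_66_P133150 come with the patched array, and the Lif intervals hold 0 in both lines. Csf3 is drawn for the β line alone.

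Il7, a cytokine that developing T cells need, averaged -8.27 ± 0.07 in treated δ, -7.23 ± 0.01 in untreated δ, -7.86 ± 0.40 in treated β and -7.27 ± 0.13 in untreated β cells (SD, n = 2 each). Csf2, the granulocyte and macrophage factor, averaged -6.62 ± 0.55 in treated δ, -7.41 ± 0.07 in untreated δ, -7.55 ± 0.49 in treated β and -7.49 ± 0.14 in untreated β cells (SD, n = 2 each). None of these values was well above background, so no fold is given for either gene.

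Between the lines, cytokine values were mostly lower in δ than in β cells. Without doxycycline, all 8 measured cytokines had values below 0 for δ over β, with a median of -0.57 against 0.02 over all genes, and 4 passed, each lower in δ cells (Lif, Kitl, Csf1 and Csf3). Without the patched untreated δ replicate 1 that median was -0.37, and without any other array it ran from -0.62 to -0.51. With the δ level of Csf3 set to the background limit it was -0.49. In that comparison 13.2% of all tested genes were called. Csf3 met the filter only through treated β cells, so its sign and call lend no support to lower δ values. The other 7 cytokines were all below 0, with a median of -0.57. With doxycycline, 6 of 8 had values below 0, with a median of -0.18 against -0.01 over all genes, and only Lif passed, where 15.3% of all genes were called. The filter took Csf3 in through treated β cells, so its sign lends no support in this comparison either. With Csf3 left out, 5 of 7 were below 0, with a median of -0.15. With doxycycline against none, the median was 0.18 in the δ line over the 7 cytokines other than Csf3, which was not well above background there without the drug, against 0.00 over all genes. With the fitted value of Csf3 included it was 0.30, and 0.09 without the patched array or 0.10 without treated δ replicate 2. The median of the 8 in the β line was 0.04 against 0.03 over all genes, and -0.01 to 0.05 with an array left out. Leaving out each array in turn gave between 0 and 5 called cytokines for the untreated lines. Some marker sums also differed between the lines, not all in the same direction. General epithelial, medullary thymic epithelial and mast cell sums were lower in δ cells and the endothelial sum was higher. Of 8 medullary markers, 4 were well above background on all arrays. Their sum was 2.36 to 2.46 in treated δ and 2.55 to 2.79 in untreated δ cells. In β cells it was 3.13 to 3.46 with and 3.09 to 3.36 without doxycycline. The macrophage and dendritic cell sums of the untreated lines overlapped. The summed general epithelial markers given above were lower in δ cells. The summed level of 6 mast cell markers, 4 of them well above background on all arrays and Cpa3 on none, was 2.62 to 2.66 in treated δ and 3.25 to 3.59 in untreated δ cells, against 5.33 to 5.62 in treated β and 6.69 to 6.83 in untreated β cells. That of 6 endothelial markers, 4 well above background on all arrays and Emcn on none, was 5.65 to 5.8 in treated δ and 3.82 to 4.15 in untreated δ cells, against 2.39 to 2.56 in treated β and 1.63 to 2.03 in untreated β cells, so it was higher with doxycycline in both lines. The macrophage and dendritic cell sum was 15.8 to 16.1 in treated δ and 17.1 to 19.2 in untreated δ cells, against 22 to 24.7 in treated β and 18.1 to 20.9 in untreated β cells. The part of these lists in the cytokine differences was not tested.

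Kitl, the ligand that supports lymphocyte precursors and mast cells through the receptor KIT, read 0.74 and 1.01 in untreated δ cells, against 1.42 and 1.47 in untreated β cells. With doxycycline it read 0.93 and 0.84 in δ cells, against 1.09 on both β arrays. The δ arrays were below the β arrays in both conditions. The difference was -0.20 with doxycycline (adjusted p = 0.285) and -0.57 without (SE 0.11, 1.48-fold, adjusted p = 0.0262). The other 2 Kitl probes differed from the brightest one without doxycycline, with values of 0.22 on A_55_P2730751 (adjusted p = 0.621) and -0.15 on A_55_P2745567 (adjusted p = 0.515). The mean over the 3 probes was -0.17 (adjusted p = 0.352). The call on the brightest probe was lost on leaving out any 1 array other than untreated δ replicate 2 (adjusted p = 0.0535 to 0.0849). With doxycycline against none, Kitl on that probe had values of 0.01 in the δ line (adjusted p = 0.976) and -0.36 in the β line (adjusted p = 0.187).

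Csf1, the growth factor of macrophages, read 3.40 and 3.48 in untreated δ cells, against 3.82 and 3.88 in untreated β cells. With doxycycline it read 3.46 and 3.57 in δ cells, against 3.78 and 3.82 in β cells. Every δ array was below every β array. The difference was -0.29 with doxycycline (adjusted p = 0.0849) and -0.41 without (SE 0.09, 1.33-fold, adjusted p = 0.0345). On the other 2 probes the untreated difference was -0.41 (A_55_P2169669, adjusted p = 0.161) and -0.30 (A_55_P2017914, adjusted p = 0.324), so the 3 probes had the same sign. The call was lost on leaving out any of the 8 arrays, with adjusted p between 0.05 (without untreated δ replicate 2) and 0.134. The doxycycline values on the brightest Csf1 probe were 0.08 in the δ line (95% interval -0.14 to 0.29) and -0.05 in the β line (95% interval -0.27 to 0.17). On A_55_P2169669 they were 0.42 in the δ line (adjusted p = 0.377) and 0.31 in the β line (adjusted p = 0.366).

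Csf3, the granulocyte factor, was near background, and it met the filter only through treated β cells. It read -6.93 and -6.35 in untreated δ cells, neither array well above background, against -4.64 and -5.48 in untreated β cells, 1 of 2 arrays well above it. With doxycycline it read -6.60 and -5.84 in δ cells, 1 of 2 well above background, against -4.63 and -4.92 in β cells, both well above it. All δ arrays were below all β arrays. Without doxycycline the fitted Csf3 difference was -1.58 (adjusted p = 0.0459), between values mostly not well above background. The background limit of the δ arrays was -5.28, and untreated β replicate 2, at -5.48, lies under it. No fold is therefore given for that comparison. With normexp background correction the untreated difference was -0.29 (adjusted p = 0.32), against the fitted -1.58. The call held without untreated δ replicate 2 or untreated β replicate 2 and was lost without any other array (adjusted p = 0.0583 to 0.17). The treated difference of -1.44 had an adjusted p of 0.0544, which was under the threshold without any 1 of the 4 untreated arrays (0.0407 and 0.0485). No doxycycline fold is given for the δ line, where the treated mean of -6.22 lies under the background limit of the untreated arrays. For the β line the fit gave 0.28 with doxycycline (SE 0.38, adjusted p = 0.775), beside a median of 0.24 for the 1011 genes of like signal.

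**Figure D4:**
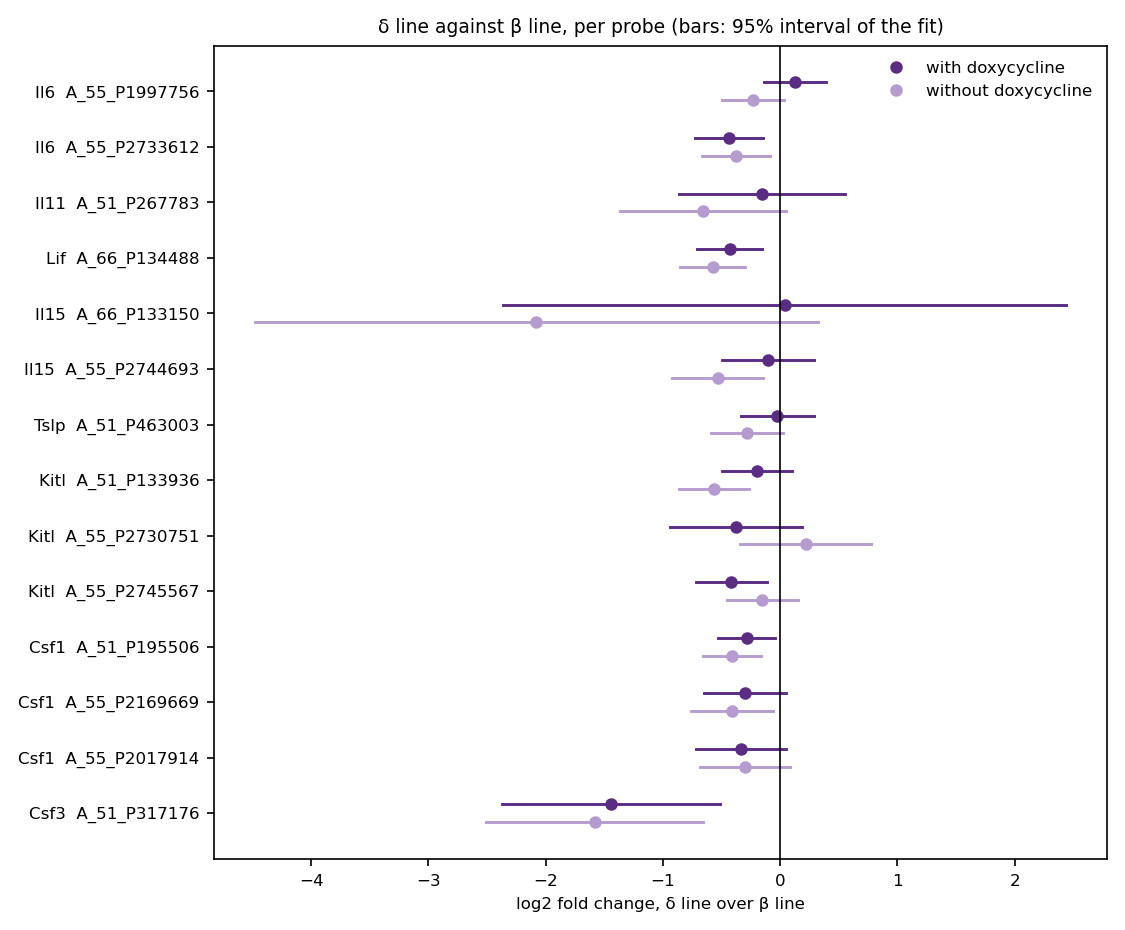
Log2 fold change of each kept cytokine probe, δ line over β line, with and without doxycycline, with 95% intervals of the fit across all probes. Lif lies at -0.43 and -0.58 with and without doxycycline, the 3 Csf1 probes between -0.41 and -0.29, and the untreated values of the 3 Kitl probes lie on both sides of 0. The untreated Csf3 point is a fitted value against δ arrays not well above background.

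The receptors of these cytokines were all measured, 15 of 15. None passed with doxycycline in either line alone, and 2 (13.3% of the list, where 3.13% of all genes were called) rose for the mean of both lines, with a list median of 0.01 against 0.02 over all genes. Crlf2, the TSLP-binding receptor chain, rose by 0.43 (SE 0.07, adjusted p = 0.0355), with means of 4.56 in treated and 4.11 in untreated δ cells, and 4.36 in treated and 3.96 in untreated β cells. With p-values adjusted over all kept probes, neither Crlf2 probe passed for that mean (0.43 and 0.41, adjusted p = 0.0657 and 0.0675). Csf2ra, the GM-CSF-binding chain, rose by 0.38 (SE 0.07, adjusted p = 0.0489). Most of that mean came from the β line, with 0.63 (adjusted p = 0.0656), against 0.13 in the δ line (adjusted p = 0.518). The interleukin 6 receptor Il6ra had a mean change of -0.19 (adjusted p = 0.476) and gp130 (Il6st) one of 0.15 (adjusted p = 0.315). The receptor of CSF1, Csf1r, had a value of 0.89 in the β line (adjusted p = 0.0754).

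Between the lines, Csf2ra was far higher in δ cells. Its probe read 1.47 on both treated δ arrays, against -3.60 and -3.52 in treated β cells, and 1.37 and 1.31 in untreated δ cells, against -4.10 and -4.27 in untreated β cells. The groups are apart by over 4 log2 units, and the difference was 32.6-fold with doxycycline (adjusted p = 6.25e-06) and 46.0-fold without (adjusted p = 6.07e-06). Il2rg, the common γ chain of the interleukin 7 and 15 receptors, was lower in δ cells by -0.76 with doxycycline (adjusted p = 0.0057) and -0.44 without (adjusted p = 0.037). Il7r was not well above background on any δ array, stood well above it on 1 of the 2 untreated β arrays, and was at least 2.04-fold lower in δ cells with doxycycline (adjusted p = 0.0253) and at least 1.21-fold lower without (adjusted p = 0.0363). These adjusted p-values belong to the fitted differences and not to the bounds. Il7r met the filter only through treated β cells, so its calls lend no support to a line difference. The other 12 receptors passed in neither comparison of the lines. The 3 called are 20% of the list, beside 15.3% of all genes called with doxycycline and 13.2% without. With Il7r set aside only Csf2ra and Il2rg remain, so the number of calls does not set the list apart.

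Of 26 further cytokines, 19 were measured, and none passed with doxycycline in a single line. For the mean of both lines 2 fell, Il33, an alarmin of epithelial and stromal cells, by 0.65 (adjusted p = 0.0448) and Il34, a second ligand of CSF1R, by 0.60 (adjusted p = 0.0201), which is 10.5% of the list against 3.13% of all genes, with a list median of -0.06. The Il33 call rests on 1 probe. On its second probe, A_55_P2614900, Il33 read -1.48 and -1.59 in treated δ cells, against -0.72 and -0.77 in untreated δ cells, but -2.82 and -2.57 in treated β cells, against -2.81 and -2.46 in untreated β cells, where the groups overlap. The values on that probe were -0.79 in the δ line (adjusted p = 0.233 over all kept probes), -0.06 in the β line (adjusted p = 0.916) and -0.43 for the mean (adjusted p = 0.128). The second Il34 probe had a mean value of -0.53 (adjusted p = 0.0539). Il34 read between -0.55 and -0.49 in treated δ cells, against 0.19 and 0.27 in untreated δ cells, and between -1.05 and -1.03 in treated β cells, against -0.68 and -0.51 in untreated β cells. Treated arrays were below untreated ones in each line. Both genes were higher in δ than in β cells, Il33 by 1.46 with doxycycline and 1.58 without (adjusted p = 0.00337 and 0.00233), and Il34 by 0.52 and 0.82 (adjusted p = 0.0202 and 0.00379), against 0.15 and 0.63 on its second probe (adjusted p = 0.485 and 0.0265). In untreated cells 4 of 19 were higher in δ cells, among them Il3 by 0.71 (adjusted p = 0.0479). Ctf1, the gp130 ligand cardiotrophin 1, was lower in δ cells by -0.64 (adjusted p = 0.0139), on a probe in a tile that deviated on 1 array or more. With doxycycline 3 were higher and 2 lower, the lower ones being Ctf1 (-0.55) and Il17a (-1.46). The Il17a probe, too, lies in a tile that deviated on 1 array or more. In each comparison of the lines 5 of the 19 were called, 26.3%, beside 15.3% of all genes called with doxycycline and 13.2% without. The Ctf1 call in both and the Il17a call with doxycycline rest on the probes in deviating tiles.

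JAK and STAT genes and their feedback inhibitors, 26 of 27 measured, had no call with doxycycline in either line or for the mean, with a mean-effect list median of 0.01. Socs3, a feedback inhibitor that gp130 signalling induces, averaged 4.10 ± 0.34 in treated δ, 3.99 ± 0.48 in untreated δ, 4.01 ± 0.09 in treated β and 4.0 ± 0.19 in untreated β cells (SD, n = 2 each). The groups overlap in both lines. The Socs3 probe lies in a deviating tile and read 3.648 on untreated δ replicate 1, against 4.325 on replicate 2. The overlap in the δ line therefore does not show that Socs3 was unchanged. In untreated cells 3 genes were higher in the δ line, Stat3 by 0.62 (adjusted p = 0.0479), the phosphatase Ptpn6 by 0.53 (adjusted p = 0.0217) and the kinase Pim1 by 0.63 (adjusted p = 0.0417), and Stat2 was lower by -0.79 (adjusted p = 0.00894). With doxycycline Ptpn6 (0.50) and Pias2 (0.65) were higher. These calls are 15.4% of the list without doxycycline and 7.69% with it, near and below the 13.2% and 15.3% of all genes called, so their number does not set the list apart. Another probe differed for Stat2, with -0.04 on A_66_P102138 (adjusted p = 0.927). Both Stat3 probes had 0.62 without doxycycline, and neither passed over all kept probes (adjusted p = 0.0765 and 0.159). For Ptpn6, A_52_P666779 had -0.18 without and -0.29 with doxycycline (adjusted p = 0.553 and 0.348). The Ptpn6 probe A_52_P114722 had 0.50 in both comparisons, the sign of the brightest probe, and passed (adjusted p = 0.0404 without and 0.0412 with doxycycline).

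Genes of the NF-κB, C/EBP and AP-1 factors, which are known to induce Il6, were all measured, 26 of 26, and 2 passed for the mean doxycycline effect (7.69% of the list, against 3.13% of all genes). Fos, an AP-1 subunit, rose by 0.93 (SE 0.10, adjusted p = 0.0148), with values of 0.90 in the δ line (adjusted p = 0.0978) and 0.96 in the β line (adjusted p = 0.0565). Fosl1, another AP-1 subunit, fell by 0.47 (SE 0.08, adjusted p = 0.0407). The C/EBP genes Cebpb and Cebpd and the NF-κB inhibitor gene Nfkbia were not called with doxycycline. In untreated cells 3 were lower in the δ line, Fosl1 by -1.38 (adjusted p = 0.000864), Atf3 by -1.26 (adjusted p = 0.00154) and Tnfaip3, a brake on NF-κB, by -0.82 (adjusted p = 0.00641). With doxycycline these 3 and Fosb (-0.88) and Jun (-0.77) were lower. These are 11.5% of the list without doxycycline and 19.2% with it, beside 13.2% and 15.3% of all genes called.

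**Figure D5:**
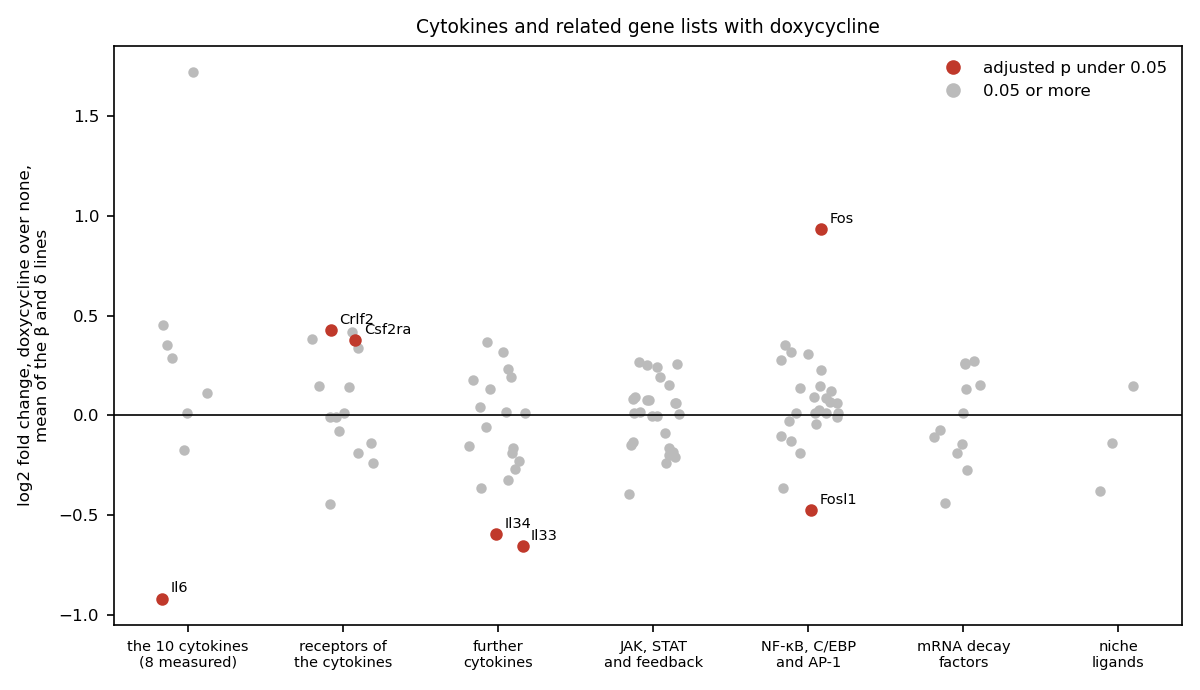
Log2 fold change with doxycycline, mean of the β and δ lines, for the measured cytokines and the 6 related gene lists, 1 point a gene, with called genes named. Il6 (-0.92) is the lowest point among these lists, 2 receptors and Fos are called above 0, and the highest grey point among the cytokines (1.72) is the Il15 probe in the patch.

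Genes for factors that set the decay of cytokine mRNA, 12 of 12 measured, had no call with doxycycline. Zc3h12a, the RNase regnase-1 known to cut Il6 mRNA, had a mean value of -0.44 (adjusted p = 0.105), and Zfp36, tristetraprolin, one of 0.27 (adjusted p = 0.15). Zfp36l1 was higher in δ cells by 0.77 with and without doxycycline (adjusted p = 0.0198 and 0.0204), and Tia1 by 0.56 with it (adjusted p = 0.0283). These calls are 16.7% of the list with doxycycline and 8.33% without, near and below the 15.3% and 13.2% of all genes called. Their number does not set the list apart. On the second Zfp36l1 probe, A_66_P112567, the values were below 0, at -0.53 with and -0.10 without doxycycline (adjusted p = 0.267 and 0.853). The Tia1 probes had 0.56 and 0.50 with doxycycline, and neither passed over all kept probes (adjusted p = 0.0529 and 0.0744). Of 6 thymic niche ligands, 3 were measured and none passed with doxycycline. Cxcl12, a chemokine that draws in precursors, was higher in δ cells by 0.55 with doxycycline (adjusted p = 0.0357) and 0.83 without (adjusted p = 0.00962). Its second probe, A_55_P1966204, had 0.48 with and 0.45 without doxycycline (adjusted p = 0.0593 and 0.0698 over all kept probes). With that adjustment the brightest probe passed only without doxycycline (adjusted p = 0.0187, against 0.0631 with it). Ccl25 had a mean doxycycline value of -0.38 (adjusted p = 0.087).

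The tested genes whose 8 array values were most like those of the brighter Il6 probe were Ppme1 (Pearson r 0.992), Plvap (0.987) and Dgcr8 (0.985), given as a description over 8 arrays of 1 slide that share the split by doxycycline. Plvap read 0.16 and 0.07 in treated δ cells, against 0.997 and 0.82 in untreated δ cells, and 0.01 and 0.04 in treated β cells, against 0.94 and 1.06 in untreated β cells. Its doxycycline values were -0.79 in the δ line and -0.97 in the β line, those of Ppme1 -0.32 and -0.49, and those of Dgcr8 -0.22 and -0.28.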

How the data were processed

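The deposited values are spot intensity values of 8 single-colour arrays, background-subtracted and spatially detrended by the authors with Agilent Feature Extraction, per the file headers, with no normalization between arrays. The multiplicative detrending had a root mean square of 0 on 3 treated arrays, 0.0811 on treated β replicate 1 and 0.0671 to 0.126 on untreated arrays. From these, log2 intensity was averaged over the unflagged spots of a probe less the 75th percentile of its array. Of all probes, 32994 were named by RefSeq accession (GRCm38.p6, names only), 98 lacked an unflagged spot on an array and were left out, and the 27215 named probes kept stood well above background on each array of 1 group or more. Each gene was represented by its brightest kept probe.

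With limma 3.58.1 in R 4.3.3, 1 model with 4 group means was fitted to the 8 arrays by lmFit and eBayes (4 residual degrees of freedom), with Benjamini-Hochberg adjustment over 19023 genes, or over 44321 probes for single probes, and a threshold of 0.05. The fit was tested on simulated data. A probe below background on every array of a group gives a bound. The arrays with the same slide column did not deviate together (r 0.0759 in the δ line and 0.0185 in the β line). The normexp alternative used the median signal with an offset of 50, as the files used here hold no mean signal column, and it lacks the detrending.

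The members and gene lists were chosen with earlier results of these data known. Named were all 10 cytokines with all probes, measured receptors, list genes that passed (up to 6 a comparison) or had up to 3 of the largest changes, and the 3 genes most like Il6; Socs3, Cebpb, Cebpd and Nfkbia were added after their values were seen. The second probes of list genes, and medians with Csf3 or an array left out, were looked at after seeing the data. A list gene that the rule takes is not reported here.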

Additional observations from a re-analysis of the deposited data

How the results depend on the processing

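The fall of Il6 with doxycycline kept its sign in all alternatives, at -1.16 to -0.87 in the β line with adjusted p between 0.0146 and 0.221. Its call there was lost in 11 of 18. Cytokines called in the β line were 0 with normexp, median centring, no filter on dim probes, the groups compared alone or a replicate block by slide column (Il6 adjusted p = 0.214), and 0 to 1 on leaving out an array. In the δ line 1 was called with the mean over probes, and 0 to 3 with an array left out. For the mean of both lines the counts were 3 with no filter or without the patch, 2 with the filter on all arrays, 0 with the replicate block and 0 to 4 with an array left out, and for the difference of effects 0 to 2 with an array left out. Between untreated lines 1 was called with normexp or median centring, 2 with no filter or the mean over probes, 0 with the groups alone and 0 to 5 with an array left out. Between treated lines 0 were called with normexp, no filter or an intensity trend, 2 with the groups alone and 0 to 2 with an array left out. The causes were not tested.

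Signs turned only for values that were not called. With normexp this was Il11 in the β line (-0.0295), with quantile normalization Kitl in the δ line (-0.00854), and with median centring Il11 in the β line (-0.0062). With the mean over probes, Csf1 turned in the β line (0.20), Kitl in the δ line (-0.28) and Il6 between treated lines (-0.15). On leaving out an array, β values ran from -0.14 to 0.70 for Csf3, -0.0149 to 0.0808 for Il11 and -0.0588 to 0.14 for Lif, and the δ value of Kitl from -0.12 to 0.15.

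Calls over all genes moved more. Here and above, without the patch means without every probe in a tile that deviated on any array. In the β line 47 genes became 13 with normexp, 14 with median centring, 8 with no filter, 0 with the groups alone or the replicate block, 237 with an intensity trend, 331 with the filter on all arrays and 272 without the patch. The 14 genes of the δ line became between 1 and 52 in those settings, and 1620 without untreated δ replicate 2, which leaves the patched array alone. The 595 genes of the mean became 1 with the replicate block, 182 with median centring, 219 with normexp and 2198 with no filter. The 2506 genes between untreated lines became 709 with the groups alone. Signals near background limit Csf3, Il15, Il7 and Csf2.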
